A study of Mus musculus with 12 samples.

Results

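CD44+ CD4 T cells that keep both CD62L and PSGL1 at high level were compared with naive CD4 T cells, all sorted from the spleens of female MRL/Faslpr mice. The comparison takes 6 of the 12 arrays of the series, 3 per population, and all 12 arrays share the estimate of spread. CD62Lhi PSGL1hi cells were CD44+ and came from mice aged 16 to 24 weeks. Naive cells were CD62Lhi and CD44lo and came from mice aged 6 to 8 weeks, so that population and age cannot be told apart. The other CD44+ populations, CD62Llo PSGL1hi and CD62Llo PSGL1lo, also from mice of 16 to 24 weeks, serve below to show how far CD62Lhi PSGL1hi cells differ from other antigen-experienced cells. Every population was gated as TCRb+ CD4+ B220-, and every mouse, naive donors included, carried the lpr mutation of Fas, the gene of a death receptor, on the lupus-prone MRL background. Replicates are technical by their titles but separate sorts by the design text, so p-values measure the spread between these arrays, which may be technical. The labels do not say how many mice gave the cells of 1 sort.

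CD62L is the selectin with which T cells enter lymph nodes from the blood. PSGL1, encoded by Selplg, is the ligand through which leukocytes roll on P- and E-selectin, and CD44 is a hyaluronan receptor that stays high after T cells have met antigen. CD4 T cells that are CD44-high and CD62L-high are usually called central memory cells: they recirculate through lymphoid tissue, whereas CD62L-low cells are described as effector or effector memory cells. The lpr mutation lets lymphocytes survive that Fas would otherwise remove, and mice of this strain develop an autoimmune disease that resembles lupus, in which CD4 T cells help B cells to make autoantibody.

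RNA was read on whole-genome Affymetrix mouse arrays. The values are ratios: each probe set was divided by the median it had on the 12 arrays, so a ratio compares arrays for 1 gene and says nothing on how bright the gene is. Array medians lay between 0.967 and 1.022. The 3' and 5' control probe sets of Gapdh bear on RNA integrity and amplification. Each was already divided by its own median, so their log2 ratio compares arrays and gives no absolute integrity. It was 0.297 to 0.406 on the naive arrays and -0.151 to 0.091 on the CD62Lhi PSGL1hi arrays. The same ratio for actin was -0.08 to 0.073 on the naive arrays and 0.392, -0.023 and -0.009 on the CD62Lhi PSGL1hi arrays, where replicate 1 stood apart. The part of either in the results was not tested. Differences are given on the log2 scale as CD62Lhi PSGL1hi minus naive ± SE of the limma fit (n = 3 arrays per population), and genes count as called where the p adjusted over 18193 named genes (Benjamini-Hochberg) is under 0.05.

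Of 18193 genes, 3770 (20.7%) were called: 1892 (10.4%) were higher and 1878 (10.3%) lower in CD62Lhi PSGL1hi cells than in naive cells. Large differences were mostly rises. At least 2-fold higher were 715 genes (3.93%), against 261 genes (1.43%) at least 2-fold lower. The median log2 difference over all genes was -0.045. The bulk arrays give RNA per sample, so more cells of a kind and more RNA per cell cannot be told apart in any of these values.

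**Figure D1:**
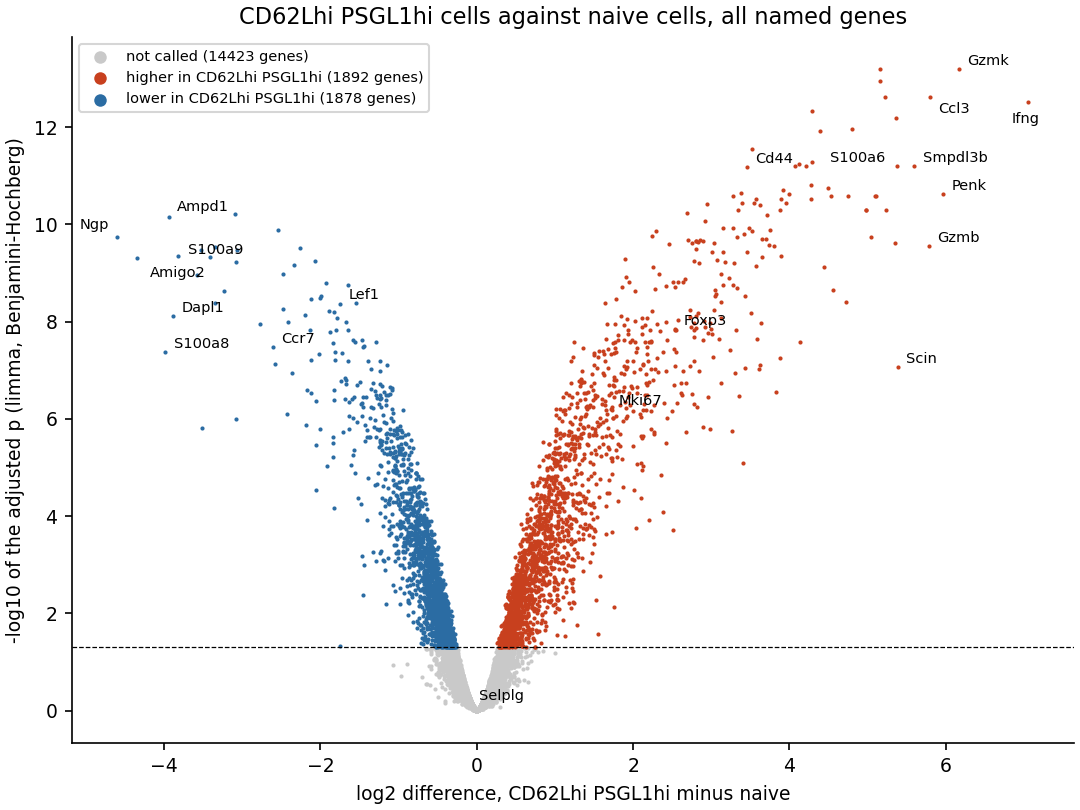
Log2 difference between CD62Lhi PSGL1hi and naive cells (x axis) against -log10 of limma's adjusted p (y axis), 1 point per gene; the dashed line is the threshold of 0.05. The right arm with 1892 higher genes reaches 7.06 at Ifng, the left arm with 1878 lower genes reaches -4.60 at Ngp, and Selplg lies at the foot.

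The gate was visible in RNA where a probe set was named. Cd44 stood at 0.0842, 0.0779 and 0.0752 in the naive arrays and 0.972, 0.865 and 0.772 in the CD62Lhi PSGL1hi arrays. The groups did not overlap, and the difference was 3.45 ± 0.12 (adjusted p = 6.73e-12, limma); of 3 other probe sets of Cd44, 2 passed in the same direction. Selplg stood at 1.15, 1.12 and 1.02 in the naive arrays and 0.950, 1.07 and 1.11 in the CD62Lhi PSGL1hi arrays, overlapping, with a difference of -0.07 ± 0.12 (adjusted p = 0.74, limma) and no call. In CD62Llo PSGL1lo cells, sorted for low PSGL1, Selplg was at 0.118, 0.127 and 0.153. Among genes of the shared gate, Cd4 differed from naive cells by 0.06 ± 0.10, Cd3e by 0.22 ± 0.09 and Cd3d by 0.06 ± 0.13, none of them called. Cd4 was called lower than in CD62Llo PSGL1hi (-0.59 ± 0.10) and CD62Llo PSGL1lo cells (-0.59 ± 0.10). The call against CD62Llo PSGL1hi cells was lost with the probe set of highest SD. Fas, mutated in every mouse, was at 1.00, 0.795 and 0.872 in the naive arrays and 0.995, 1.06 and 0.816 in the CD62Lhi PSGL1hi arrays (difference 0.10 ± 0.14, not called). Tcf7, for which no probe set was named, is not analysed here.

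The largest rises were genes of effector T cells. They were ranked among called genes whose naive and CD62Lhi PSGL1hi arrays did not overlap, so both traits were set by the choice. Ifng, the cytokine that defines Th1 cells, stood at 0.0144, 0.0123 and 0.0128 in the naive arrays and 2.21, 1.90 and 1.27 in the CD62Lhi PSGL1hi arrays. The difference of 7.06 ± 0.18 was the largest of the comparison (adjusted p = 3.03e-13, limma). Gzmk, a granule protease of cytotoxic and some CD4 effector cells, stood at 0.0237, 0.0267 and 0.0348 in the naive arrays and 1.97, 2.17 and 1.91 in the CD62Lhi PSGL1hi arrays, and its difference was 6.17 ± 0.13. Gzmb is the granzyme that triggers apoptosis of target cells. It stood at 0.0476, 0.0485 and 0.0412 in the naive arrays and 2.08, 4.02 and 1.90 in the CD62Lhi PSGL1hi arrays. Its difference was 5.78 ± 0.28. The chemokines Ccl3 (5.80 ± 0.14) and Ccl5 (5.36 ± 0.15), which attract effector cells, and Penk (5.97 ± 0.22), the precursor of enkephalin peptides, were also among the 12 largest rises.

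Other large rises were those of membrane, cytoskeletal and regulatory genes. Smpdl3b, a lipid-modifying phosphodiesterase of the plasma membrane, differed by 5.60 ± 0.19. Scin, encoding the actin-severing protein scinderin, differed by 5.39 ± 0.42, with a wide spread within the group: its CD62Lhi PSGL1hi ratios were 1.92, 0.562 and 1.05. S100a6, a calcium-binding protein, stood at 0.0494, 0.0348 and 0.0276 in the naive arrays and 1.43, 1.60 and 1.48 in the CD62Lhi PSGL1hi arrays and differed by 5.37 ± 0.18. Itgae, the alpha chain of the integrin CD103, rose by 5.24 ± 0.21. Maf, a transcription factor that drives Il10, Il21 and Il4 in T cells, rose by 5.35 ± 0.25; 4 of its 5 other probe sets passed in the same direction. Osbpl3, encoding an oxysterol-binding protein, rose by 5.23 ± 0.13, and 1 of its 2 other probe sets passed.

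The largest falls included neutrophil granule genes. Ngp, encoding neutrophilic granule protein, stood at 18.9, 17.9 and 19.4 in the naive arrays and 0.765, 0.595 and 1.02 in the CD62Lhi PSGL1hi arrays; S100a8 stood at 12.2, 13.7 and 13.5 in the naive arrays and 0.919, 0.621 and 0.996 in the CD62Lhi PSGL1hi arrays. On the 9 arrays of CD44+ cells Ngp stayed between 0.595 and 1.13 and S100a8 between 0.556 and 1.42, so that only the 3 naive arrays were high. They fell by 4.60 ± 0.21 and 3.99 ± 0.29. S100a9, the partner of S100a8 in calprotectin, fell by 3.83 ± 0.19, Lcn2 by 3.42 ± 0.17, Ltf by 3.24 ± 0.19 and Camp by 3.09 ± 0.13. Of 29 markers of macrophages, monocytes and neutrophils, 7 were lower and 4 higher. Their mean ratio was 2.86 to 3.04 on the naive arrays and 0.947 to 1.12 on the CD62Lhi PSGL1hi arrays. Their median ratio was 0.998 to 1.03 on the naive arrays and 0.85 to 1.06 on the CD62Lhi PSGL1hi arrays. A few high genes thus carried the naive mean, and the list as a whole was not shifted. Other neutrophil genes differed less or not beyond the threshold: Csf3r fell by 0.48 ± 0.15, Elane differed by -0.15 ± 0.12 and Mpo by 0.26 ± 0.21. The part of non-T cells in the naive sorts in these falls was not tested. Lcn2 was picked by its rank and not by a marker list.

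The other large falls came from genes of several kinds. Dapl1, a marker of naive and early memory T cells, stood at 22.4, 23.2 and 16.4 in the naive arrays and 0.970, 1.18 and 2.35 in the CD62Lhi PSGL1hi arrays. It fell by 3.88 ± 0.24, and the CD62Lhi PSGL1hi array of replicate 3 kept the highest level of its group. Pdlim4, an adaptor of the actin cytoskeleton, stood at 24.1, 25 and 20.2 in the naive arrays and 1.17, 1.47 and 4.78 in the CD62Lhi PSGL1hi arrays and fell by 3.51 ± 0.35, again with replicate 3 highest. Ampd1, the AMP deaminase best known from muscle, stood at 17.2, 17.4 and 14.7 in the naive arrays and 0.848, 0.957 and 1.5 in the CD62Lhi PSGL1hi arrays and fell by 3.94 ± 0.17. The falls, too, were ranked among called genes whose naive and CD62Lhi PSGL1hi arrays did not overlap. Amigo2, an adhesion protein, fell by 4.35 ± 0.22, although its only other probe set did not pass. Adh1, an alcohol dehydrogenase that oxidises retinol, fell by 3.58 ± 0.19; Tdrp fell by 3.53 ± 0.17, Ggt5, an enzyme that processes glutathione conjugates and leukotrienes, by 3.35 ± 0.16, and the interferon-induced 2'-5' oligoadenylate synthetase Oas2 by 3.34 ± 0.20.

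**Figure D2:**
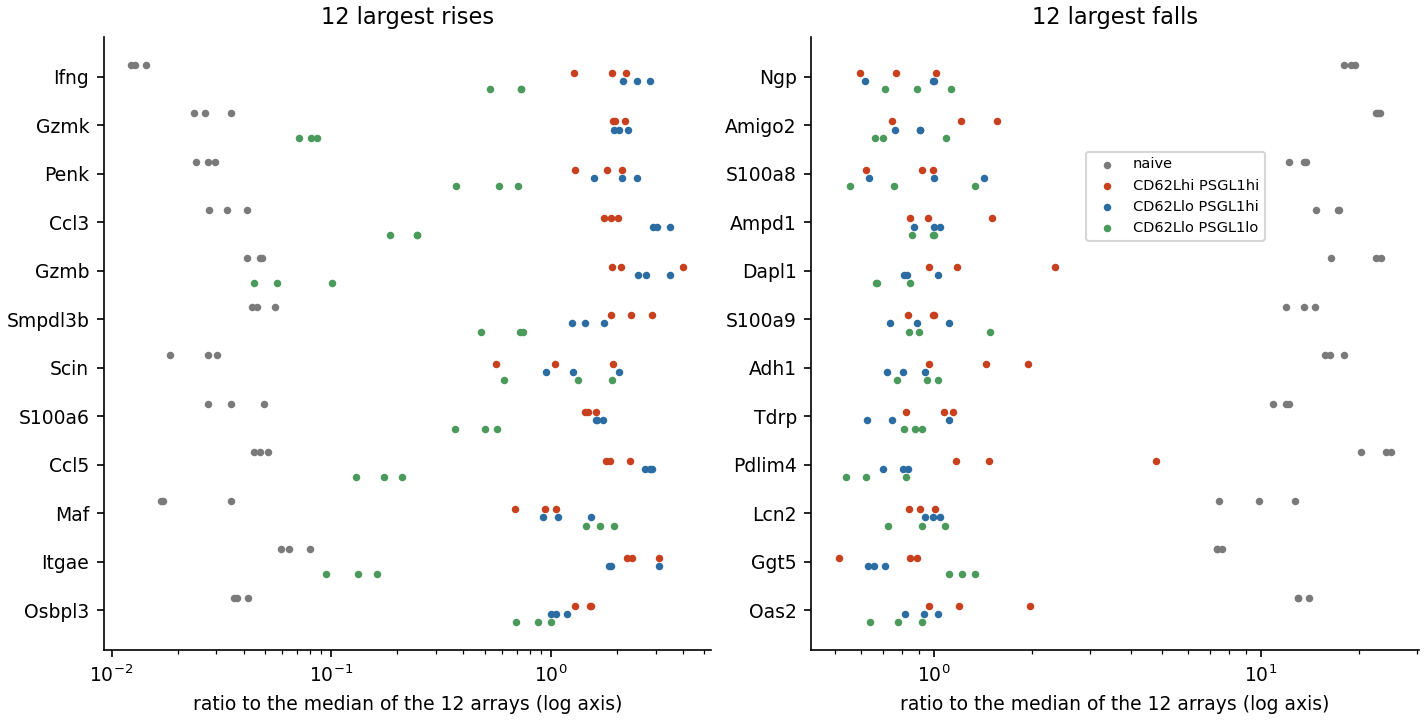
Ratio to the median of the 12 arrays (log axis) for the 12 genes that rose most and the 12 that fell most against naive cells; each point is 1 array, coloured by population. Naive arrays stand apart from the other 9 arrays on each of these genes except Gzmb, where CD62Llo PSGL1lo arrays overlap them. The choice of genes required no overlap of naive with CD62Lhi PSGL1hi arrays. Among the falls the CD62Lhi PSGL1hi points of Dapl1 and Pdlim4 reach 2.35 and 4.78.

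Gene lists were counted over their measured members and are set beside the shares over all genes, 10.4% higher and 10.3% lower. The lists were drawn up with earlier results of these data known, so that a count describes its list and is no independent evidence. Lists of mitosis, regulatory and Th1 genes stood furthest towards higher shares, and the naive and interferon lists furthest towards lower ones.

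**Figure D3:**
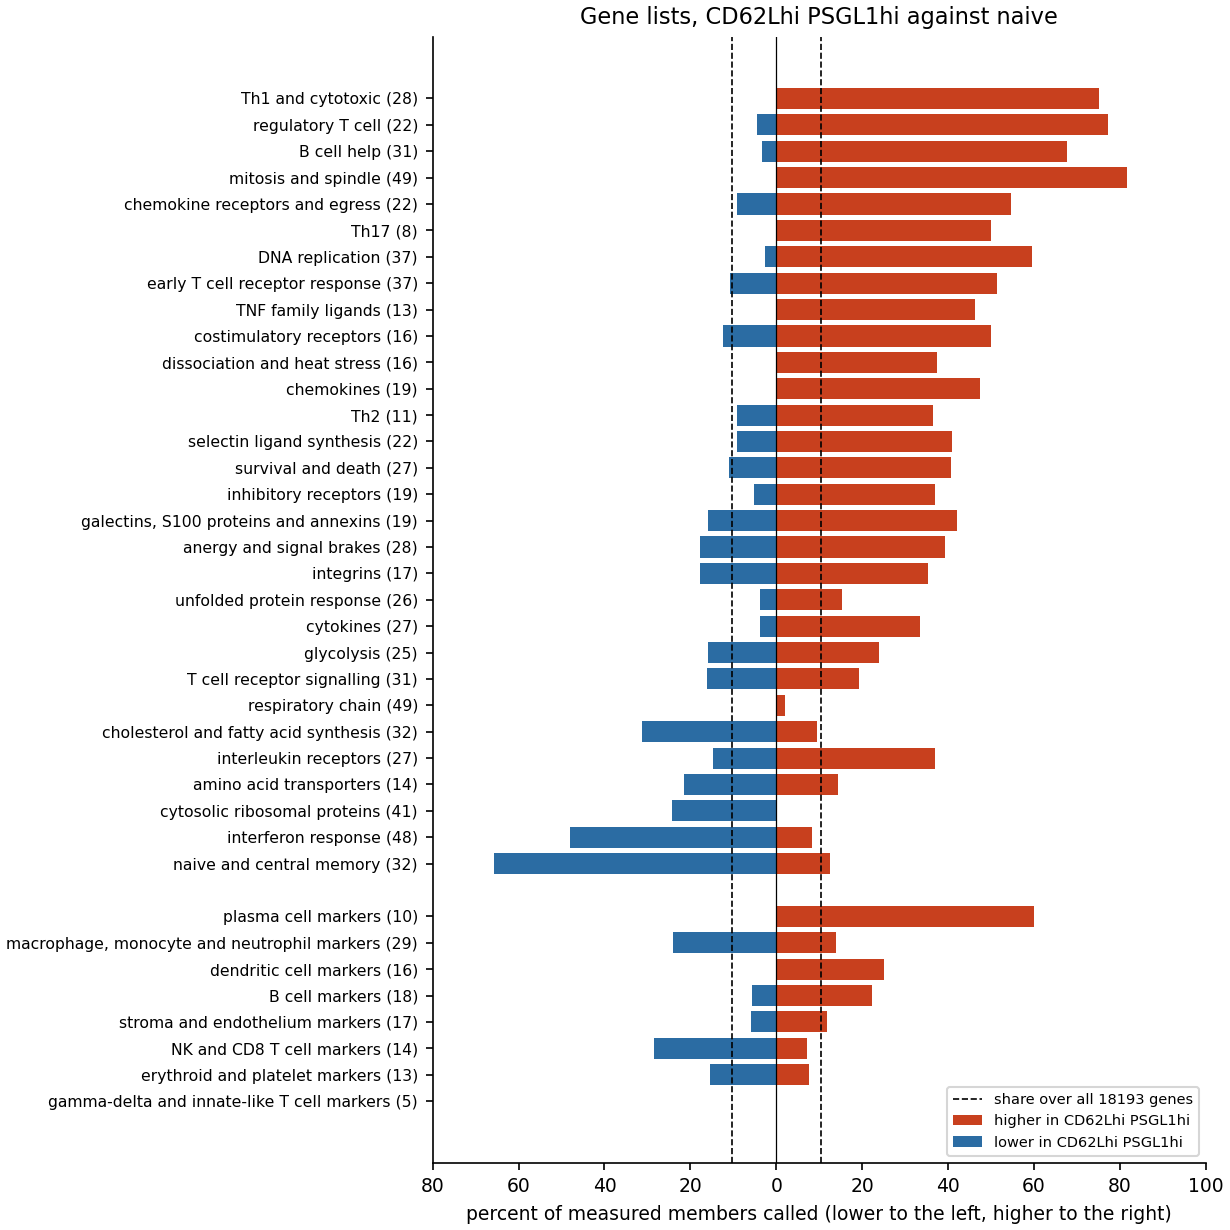
Percent of the measured members of each list (number in brackets) that were called higher (right) or lower (left) in CD62Lhi PSGL1hi cells than in naive cells; dashed lines are the shares over all 18193 genes, and lists of other cell types stand below the gap. Mitosis genes (40 of 49 higher) and regulatory T cell genes (17 of 22 higher) reach furthest right, the naive and central memory list (21 of 32 lower) furthest left.

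Of 28 measured genes of Th1 and cytotoxic cells, 21 were higher and none lower, with a median difference of 2.65. Tbx21, the transcription factor T-bet that directs Th1 differentiation, stood at 0.0819, 0.0765 and 0.0728 in the naive arrays and 1.53, 1.54 and 1.45 in the CD62Lhi PSGL1hi arrays. The groups were well apart, with a difference of 4.29 ± 0.14 (adjusted p = 5.15e-12, limma). Eomes, its paralog in memory and cytotoxic cells, rose by 3.99 ± 0.15. Nkg7, a granule membrane protein needed for degranulation, stood at 0.0632, 0.0600 and 0.0543 in the naive arrays and 2.03, 2.43 and 1.89 in the CD62Lhi PSGL1hi arrays and rose by 5.16 ± 0.11. Cxcr3, the chemokine receptor of Th1 cells, rose by 5.16 ± 0.12, Fasl, the ligand of the mutated death receptor, by 3.08 ± 0.16, and Klrg1, an inhibitory receptor of terminally differentiated cells, by 3.64 ± 0.24. The receptors for the cytokines that maintain Th1 cells rose in part: Il12rb1 by 2.12 ± 0.13, Il18r1 by 0.80 ± 0.14 and Il18rap by 1.78 ± 0.15, whereas Il12rb2 differed by -0.22 ± 0.11 and was not called. Some members were not called. Prf1, the pore-forming perforin, differed by 0.04 ± 0.09, Tnf by -0.03 ± 0.09 and Gzma by 0.64 ± 0.24. Of 14 markers of NK and CD8 T cells, 1 was higher and 4 lower, with a mean ratio of 0.975 to 1.37 on the CD62Lhi PSGL1hi arrays and 1.22 to 1.32 on the naive arrays; Cd7 fell by 1.84 ± 0.19 and Cd8a by 0.55 ± 0.10, Ncr1 differed by 0.03 ± 0.10, and Klrc1, whose only other probe set did not pass, rose by 1.76 ± 0.43. The 4 lower markers became 2 without the naive array of replicate 1.

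Of 22 regulatory T cell genes, 17 were higher and 1 lower, with a median of 2.26. Foxp3, the factor that defines regulatory T cells, stood at 0.375, 0.367 and 0.359 in the naive arrays and 2.37, 1.83 and 2.21 in the CD62Lhi PSGL1hi arrays. The lowest CD62Lhi PSGL1hi array was above the highest naive array, and the difference was 2.53 ± 0.17 (adjusted p = 1.46e-08, limma). Il10, an immunosuppressive cytokine that effector cells make too, stood at 0.121, 0.0993 and 0.0899 in the naive arrays and 2.34, 2.38 and 1.78 in the CD62Lhi PSGL1hi arrays and rose by 4.39 ± 0.13. Entpd1, the ATP-cleaving ectoenzyme CD39, rose by 4.27 ± 0.17, Ctla4, an inhibitory receptor for B7 molecules, by 2.85 ± 0.13, and Nrp1, a semaphorin receptor found on thymus-derived regulatory cells, by 3.52 ± 0.11. Smaller rises were those of Ikzf2, encoding Helios, at 0.80 ± 0.14, and Il2ra, the IL-2 receptor alpha chain CD25, at 0.83 ± 0.18. Gpr83, a G protein-coupled receptor known from regulatory cells, went the other way and fell by 1.68 ± 0.11. Several members of the list, among them Icos, Il10 and Ctla4, are also induced in activated conventional T cells.

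Genes of B cell help and follicular T cells were higher in 21 of 31 cases and lower in 1, with a median of 1.35. Il21, the cytokine that drives germinal centre B cells, stood at 0.0223, 0.0244 and 0.0266 in the naive arrays and 0.910, 0.954 and 0.528 in the CD62Lhi PSGL1hi arrays. All naive arrays were below all CD62Lhi PSGL1hi arrays, and the difference was 4.98 ± 0.20 (adjusted p = 4.96e-11, limma). Cxcr5, the receptor that guides cells to B cell follicles, rose by 4.07 ± 0.14, Pdcd1, encoding PD-1, by 3.48 ± 0.15, and Sh2d1a, encoding the adaptor SAP, by 1.72 ± 0.20. Bcl6, the lineage factor of follicular helper cells, stood at 0.685, 0.672 and 0.621 in the naive arrays and 1.03, 0.911 and 0.813 in the CD62Lhi PSGL1hi arrays and differed by 0.47 ± 0.14; the call was lost under quantile normalization (0.31), in the mean over its probe sets (0.24), and without the CD62Lhi PSGL1hi array of replicate 1 (0.39) or 2 (0.47) or the naive array of replicate 2 (0.49) or 3 (0.43). Ascl2, another factor of these cells, differed by 0.65 ± 0.36 and was not called. Il4 rose by 2.01 ± 0.26 and the BMP antagonist Sostdc1 by 3.62 ± 0.28, both uncalled under quantile normalization, at 0.58 and 0.50. Il6ra, an IL-6 receptor chain that is high on naive T cells, was the member that fell, by 2.06 ± 0.27.

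Lists of the Th2 and Th17 states were mixed. Of 11 Th2 genes 4 were higher and 1 lower (median 0.23). Gata3, the factor of Th2 cells, stood at 0.702, 0.645 and 0.557 in the naive arrays and 0.804, 0.813 and 0.750 in the CD62Lhi PSGL1hi arrays and differed by 0.32 ± 0.13 (adjusted p = 0.101, limma). The chemokine receptors Ccr4 (1.25 ± 0.14) and Ccr8 (1.13 ± 0.13) and the transcription factor Nfil3 (2.63 ± 0.23) rose, and Il4ra, the IL-4 receptor, fell by 1.22 ± 0.13. Il5 (-0.04 ± 0.13) and Il13 (0.13 ± 0.12) were not called. Of 8 Th17 genes 4 were higher: Ccr6 (3.15 ± 0.18), Rora (2.80 ± 0.14), Ahr (2.68 ± 0.22) and Batf (1.73 ± 0.16). The only other probe set of Ahr did not pass, and 5 of the 8 others of Rora did. Il17a, the cytokine itself, was at 1.01, 0.993 and 1.12 in the naive arrays and 1.04, 0.966 and 1.01 in the CD62Lhi PSGL1hi arrays and differed by -0.05 ± 0.10. Il4 was the other member of the Th2 list that rose, as given above.

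Receptors of cell traffic changed in both directions. Of 22 chemokine receptors and egress receptors, 12 were higher and 2 lower. Ccr7, which with CD62L takes naive and central memory cells into lymph nodes, stood at 7.16, 6.80 and 6.35 in the naive arrays and 0.712, 1.32 and 1.45 in the CD62Lhi PSGL1hi arrays. The groups did not overlap and Ccr7 fell by 2.61 ± 0.19 (adjusted p = 3.34e-08, limma). Ccr7 ratios of this CD62L-high population were nearer to those of CD62Llo PSGL1hi cells (0.858, 0.954 and 0.915) than to naive ones. Its replicates 2 and 3 lay above all CD62Llo PSGL1hi arrays and its replicate 1 below them. S1pr1, the receptor by which T cells leave lymphoid tissue, stood at 3.03, 2.63 and 2.73 in the naive arrays and 0.946, 1.49 and 1.28 in the CD62Lhi PSGL1hi arrays and fell by 1.20 ± 0.22. Other members rose: Ccr2, a receptor for inflamed tissue, by 3.23 ± 0.23, Cxcr6 by 2.78 ± 0.25, Gpr15, a homing receptor for the large intestine, by 3.43 ± 0.27, and Cxcr4, the receptor for CXCL12, by 1.76 ± 0.15. Ccr9, the receptor for the small intestine, differed by -0.27 ± 0.19 and Cx3cr1 by -0.22 ± 0.13; neither was called.

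Adhesion molecules and the enzymes that make selectin ligands also changed in both directions. Of 17 integrin chains 6 were higher and 3 lower (1 lower without the naive array of replicate 2). Besides Itgae, Itgb8, whose product with the alpha v chain activates TGF-beta, rose by 5.04 ± 0.23, Itgb1 by 3.05 ± 0.17, although 1 of its 5 other probe sets passed, and Itga4, the alpha 4 chain that binds VCAM-1, by 2.16 ± 0.14. Of 22 genes for the synthesis of selectin ligands 9 were higher and 2 lower (1 lower when any array of either population was left out, except the CD62Lhi PSGL1hi array of replicate 3). Gcnt1, which builds the core 2 branch that PSGL1 needs to bind selectins, stood at 0.168, 0.183 and 0.153 in the naive arrays and 1.68, 2.16 and 1.22 in the CD62Lhi PSGL1hi arrays. Every CD62Lhi PSGL1hi array exceeded every naive array, with a difference of 3.30 ± 0.17 (adjusted p = 6.29e-10, limma). The sialyltransferase St3gal6 rose by 1.46 ± 0.16, supported by 1 of its 4 other probe sets, and Galnt10, which starts O-glycans, fell by 1.09 ± 0.09. Fut7, the fucosyltransferase that completes the selectin-binding glycan, stood at 0.466, 0.738 and 0.455 in the naive arrays and 1.19, 1.06 and 1.35 in the CD62Lhi PSGL1hi arrays and rose by 1.15 ± 0.17. Fut4, another fucosyltransferase, differed by -0.10 ± 0.10 and was not called.

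Secreted and membrane-bound cytokines were called in a minority of cases. Of 27 cytokine genes 9 were higher and 1 lower; beyond Ifng, Penk, Il21, Il10 and Il4 these were Ebi3, a subunit of IL-27 and IL-35, with 2.76 ± 0.24, Il18 with 1.28 ± 0.23, Tgfb3 with 0.96 ± 0.12 and Lif with 0.91 ± 0.13. Osm, oncostatin M, was the member that fell, by 0.63 ± 0.09. Il2, the growth factor of recently activated cells, stood at 0.750, 0.724 and 1.05 in the naive arrays and 0.894, 0.813 and 0.949 in the CD62Lhi PSGL1hi arrays and overlapped. Of 19 chemokines 9 were higher and none lower, led by Ccl3, Ccl5 and Ccl4 (4.28 ± 0.15). Of 13 ligands of the TNF family 6 were higher. Tnfsf4, encoding OX40 ligand, rose by 1.91 ± 0.18, whereas Cd40lg, the ligand through which helper cells activate B cells, differed by 0.01 ± 0.11 and was not called. Tnfsf11, encoding RANKL, rose by 2.54 ± 0.20 and Tnfsf13b, encoding BAFF, by 1.87 ± 0.16. Neither call held under quantile normalization, where Tnfsf11 changed sign to -0.055 and Tnfsf13b was at 0.11, and no other probe set of either gene passed.

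Interleukin receptors changed in both directions. Of 27 genes 10 were higher and 4 lower, with a median of -0.03; with other choices of probe set 7 or 8 were lower. Il1r2, the decoy receptor for IL-1, stood at 0.0294, 0.0413 and 0.0393 in the naive arrays and 1.03, 0.681 and 1.24 in the CD62Lhi PSGL1hi arrays. It rose by 4.72 ± 0.28 with no overlap, the largest difference of this list. Il10ra rose by 2.80 ± 0.13, with 1 of its 2 other probe sets, and Il2rb, the chain shared by the IL-2 and IL-15 receptors, by 1.40 ± 0.19. The falls besides Il6ra and Il4ra were those of Ifngr2 (1.15 ± 0.12) and Il17ra (0.73 ± 0.14). Il7r, the receptor that keeps naive and memory T cells alive, stood at 1.09, 1.02 and 0.975 in the naive arrays and 0.932, 1.10 and 0.752 in the CD62Lhi PSGL1hi arrays and differed by -0.17 ± 0.13, within the spread.

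Receptors that restrain or support activation were also higher in part. Of 19 inhibitory receptors 7 were higher and 1 lower (Pilra, not called without the naive array of replicate 2 or 3), and the median of the list was 0.17. Lag3, which binds MHC class II, stood at 0.0517, 0.0492 and 0.0646 in the naive arrays and 1.01, 1.09 and 0.943 in the CD62Lhi PSGL1hi arrays and rose by 4.21 ± 0.14. Havcr2, encoding TIM-3, stood at 0.149, 0.150 and 0.154 in the naive arrays and 2.31, 2.67 and 1.77 in the CD62Lhi PSGL1hi arrays and rose by 3.88 ± 0.16. On both genes every naive array was far below every CD62Lhi PSGL1hi array. Cd160 (-0.05 ± 0.14) and Btla (-0.27 ± 0.17) were not called. Of 16 costimulatory receptors 8 were higher and 2 lower: Icos rose by 2.19 ± 0.17, Tnfrsf4, encoding OX40, by 2.28 ± 0.13, Crtam, a receptor of cytotoxic CD4 cells, by 3.64 ± 0.17, and Cd28, the main costimulatory receptor of naive cells, by 0.53 ± 0.12. Tnfrsf25 fell by 0.71 ± 0.13.

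Genes that T cell receptor signals induce within hours were higher in 19 of 37 cases and lower in 4, with a median of 0.45. The 4 lower genes were 1 without the CD62Lhi PSGL1hi array of replicate 1 or the naive array of replicate 1 or 2, and 2 without the CD62Lhi PSGL1hi array of replicate 3. Bhlhe40, a transcription factor of activated T cells, stood at 0.0358, 0.0282 and 0.0214 in the naive arrays and 0.888, 0.691 and 0.693 in the CD62Lhi PSGL1hi arrays. The groups did not overlap and the difference was 4.76 ± 0.18. Irf4, which scales with the strength of the signal, rose by 2.24 ± 0.10, though its only other probe set did not pass, Nfatc1 by 1.95 ± 0.11 and Egr2 by 1.69 ± 0.14. Nr4a1, the immediate-early gene often used to report recent signalling, stood at 0.962, 0.981 and 0.927 in the naive arrays and 0.882, 1.02 and 1.24 in the CD62Lhi PSGL1hi arrays and differed by 0.12 ± 0.13; Cd69, the early activation marker, differed by 0.06 ± 0.17. Neither was called. Myc, the growth regulator of activated cells, fell by 1.06 ± 0.14. The proximal signalling machinery was less affected: of 31 genes 6 were higher and 5 lower, with Txk, a kinase of naive cells, falling by 1.37 ± 0.14 and the phosphatases Ptpn22 and Ubash3b rising by 1.88 ± 0.12 and 1.26 ± 0.12. Of 28 genes of anergy and signal brakes 11 were higher and 5 lower; Rnf128, the ubiquitin ligase GRAIL of anergic cells, rose by 3.32 ± 0.22.

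Of 27 genes of cell survival and death 11 were higher and 3 lower (7 higher without the naive array of replicate 2, and likewise without that of replicate 3). Pmaip1, encoding the BH3-only protein NOXA, stood at 0.0621, 0.0648 and 0.0511 in the naive arrays and 1.85, 1.41 and 1.04 in the CD62Lhi PSGL1hi arrays and rose by 4.56 ± 0.26. The inflammatory caspases Casp1 (3.07 ± 0.18) and Casp4 (3.18 ± 0.16) rose with it. Bcl2, the survival factor that naive T cells depend on, fell by 0.84 ± 0.10, and Bcl2l11, encoding its antagonist BIM, by 0.61 ± 0.11. Among 19 galectins, S100 proteins and annexins, 8 were higher and 3 lower; S100a4 rose by 5.09 ± 0.19 and Anxa4 by 2.78 ± 0.19.

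Of 32 genes of naive and central memory T cells, 21 were lower and 4 higher, with a median of -0.82. Satb1, a chromatin organiser of thymocytes and naive T cells, fell by 2.77 ± 0.18, Bach2, which restrains effector differentiation, by 1.78 ± 0.11, and Actn1 by 2.05 ± 0.18. Lef1, the partner of TCF-1, stood at 3.82, 3.37 and 3.83 in the naive arrays and 1.02, 1.04 and 1.23 in the CD62Lhi PSGL1hi arrays. The naive arrays were all above, and Lef1 fell by 1.74 ± 0.10 (adjusted p = 4.23e-09, limma). Foxo1, which sustains Klf2 and Il7r, fell by 0.91 ± 0.12 and Klf2, the transcription factor of quiescence and recirculation, by 0.62 ± 0.15: its arrays were at 1.92, 2.00 and 1.69 in the naive arrays and 1.06, 1.4 and 1.22 in the CD62Lhi PSGL1hi arrays. The 4 higher members were Cxcr3, Eomes, Il2rb and Myb (1.03 ± 0.14), which are known from memory and activated cells. Cd27 (0.22 ± 0.13) and Id3 (0.17 ± 0.18), both tied to cells with a long lifespan, were not called.

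Igfbp4, an insulin-like growth factor binding protein of naive T cells, shows how far 1 probe set can stand for a gene. Its 6 named probe sets were looked at after their values were seen. The one that the rule selected stood at 1.60, 1.64 and 1.71 in the naive arrays and 0.894, 0.871 and 1.09 in the CD62Lhi PSGL1hi arrays and fell by 0.80 ± 0.13. The probe set with the highest naive ratios stood at 208, 219 and 217 in the naive arrays, 1.25, 9.18 and 20.3 in the CD62Lhi PSGL1hi arrays, 0.468, 0.752 and 0.742 in the CD62Llo PSGL1hi arrays and 0.635, 0.627 and 0.579 in the CD62Llo PSGL1lo arrays. The 5 other probe sets fell by 3.19 to 5.13, and in each of them replicate 3 was the highest CD62Lhi PSGL1hi array and replicate 1 the lowest.

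How near each array stood to naive cells was measured on genes that were at least 4-fold lower in both CD62Llo populations than in naive cells, chosen without the CD62Lhi PSGL1hi arrays and after removal of neutrophil genes. On these 39 genes the CD62Lhi PSGL1hi arrays of replicates 1, 2 and 3 stood at a median of 20.1%, 21.8% and 24.7% of the naive level. The arrays that chose the genes stood at 12.6% to 16.8%. Among the CD62Lhi PSGL1hi arrays, replicate 3 was the highest for 27 of the 39 genes, replicate 2 for 10 and replicate 1 for 2. On 165 genes at least 4-fold higher in both CD62Llo populations than in naive cells, the CD62Lhi PSGL1hi arrays stood at 79.7%, 67.3% and 66.3% of the CD62Llo level. The arrays that chose these 165 genes stood at 84.1% to 122%. On both sets of genes the CD62Lhi PSGL1hi arrays lay between the naive and the CD62Llo values, and nearer to the CD62Llo values. Because the CD62Llo arrays chose the genes, arrays left out of the choice tend to look less extreme. The place between the 2 is therefore no result of its own.

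**Figure D4:**
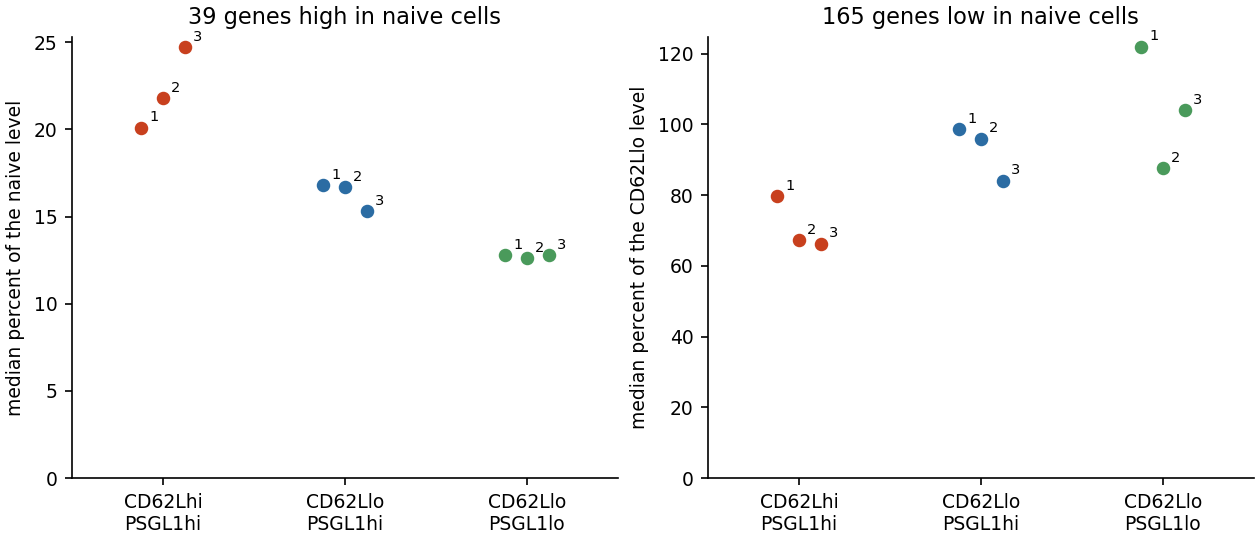
Left, median percent of the naive level over 39 genes high in naive cells; right, median percent of the CD62Llo level over 165 genes low in naive cells. Each point is 1 array with its replicate number; CD62Lhi PSGL1hi arrays lie at 20.1 to 24.7% on the left and 66.3 to 79.7% on the right, and the CD62Llo arrays were used to choose the genes.

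Cell cycle genes were higher in CD62Lhi PSGL1hi cells than in naive cells. Of 49 genes of mitosis and the spindle 40 were higher and none lower, with a median of 1.03, and 28 were at least 2-fold higher. Mki67, whose product Ki-67 marks cycling cells, stood at 0.966, 0.880 and 0.927 in the naive arrays and 2.53, 3.02 and 3.62 in the CD62Lhi PSGL1hi arrays. The groups did not overlap and the difference was 1.71 ± 0.16 (adjusted p = 6.29e-07, limma). Racgap1, needed for cytokinesis, stood at 0.554, 0.410 and 0.450 in the naive arrays and 1.89, 2.75 and 2.38 in the CD62Lhi PSGL1hi arrays and rose by 2.31 ± 0.15; 1 of its 2 other probe sets passed. Ect2, its partner in the activation of RhoA, rose by 1.48 ± 0.13, Prc1, which bundles the central spindle, by 1.91 ± 0.18, Melk, a mitotic kinase, by 2.00 ± 0.19, and Ccnb2, a cyclin of mitotic entry, by 1.54 ± 0.23. The median ratio of the 49 genes was 1.57, 2.11 and 2.92 on the 3 CD62Lhi PSGL1hi arrays and 1.03 to 1.08 on the naive arrays, so the spread within the population was wide and its lowest array was still above the naive ones. Top2a (-0.09 ± 0.11), Foxm1 (0.15 ± 0.11) and Cenpa (-0.07 ± 0.12) were among the 9 genes not called. The count was 35 to 47 over the alternative settings.

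The DNA replication list moved less. Of its 37 genes 22 were higher and 1 lower, with a median of 0.53. Tk1, thymidine kinase, rose by 1.87 ± 0.24, Cdc6, which loads the replicative helicase, by 1.66 ± 0.17, Rrm2, a subunit of ribonucleotide reductase, by 1.44 ± 0.23 and Mcm6, a subunit of the helicase, by 1.37 ± 0.12, with 1 of its 2 other probe sets. Cdc6 stood at 0.974, 1.03 and 1.03 in the naive arrays and 3.11, 2.67 and 3.90 in the CD62Lhi PSGL1hi arrays. Mcm6 stood at 0.464, 0.443 and 0.412 in the naive arrays and 1.19, 1.17 and 1.05 in the CD62Lhi PSGL1hi arrays. Neither gene overlapped between the populations. Pcna (0.22 ± 0.17), Mcm2 (0.16 ± 0.12) and Mcm7 (-0.08 ± 0.11) were not called, and Cdc7, the kinase that fires origins, fell by 0.67 ± 0.09.

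The promoters of mitosis genes are shown because many of these genes moved together and because cell cycle promoters are known for a pair of short elements, the cell cycle genes homology region (CHR, letters TTTGAA) and the CCAAT box (letters CCAAT). Sequences are RefSeq promoters of build GRCm38.p6, 5' to 3', from 250 bases before the annotated start up to the start; capitals mark matches to either motif on either strand. Of the 4 mitosis genes with the smallest p, 2 have 1 annotated start, and for Prc1 and Ect2 the one of 2 starts with more matches is shown.
Mki67 (chr7:135716380-135716629, minus strand): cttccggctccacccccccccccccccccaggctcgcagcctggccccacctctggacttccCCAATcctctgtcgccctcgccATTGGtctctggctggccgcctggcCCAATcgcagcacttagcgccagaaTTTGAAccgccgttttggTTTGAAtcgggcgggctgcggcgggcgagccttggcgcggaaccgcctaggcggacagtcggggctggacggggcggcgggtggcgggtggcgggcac
Ect2 (chr3:27153855-27154104, minus strand): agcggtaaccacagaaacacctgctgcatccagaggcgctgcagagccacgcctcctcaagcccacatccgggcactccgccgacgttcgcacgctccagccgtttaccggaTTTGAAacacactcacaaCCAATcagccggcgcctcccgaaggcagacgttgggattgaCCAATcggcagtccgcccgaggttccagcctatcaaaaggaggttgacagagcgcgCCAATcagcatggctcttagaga
Prc1 (chr7:80294226-80294475, plus strand): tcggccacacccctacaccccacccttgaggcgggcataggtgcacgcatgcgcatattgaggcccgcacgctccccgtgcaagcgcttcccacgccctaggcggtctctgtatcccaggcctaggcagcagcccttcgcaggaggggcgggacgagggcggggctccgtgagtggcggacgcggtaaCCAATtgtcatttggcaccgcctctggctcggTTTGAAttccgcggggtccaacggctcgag
Racgap1 (chr15:99651657-99651906, minus strand): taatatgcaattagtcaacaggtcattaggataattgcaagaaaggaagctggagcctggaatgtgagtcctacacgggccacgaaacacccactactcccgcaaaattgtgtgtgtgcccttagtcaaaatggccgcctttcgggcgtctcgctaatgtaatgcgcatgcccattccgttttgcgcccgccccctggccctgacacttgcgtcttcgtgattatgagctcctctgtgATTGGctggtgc
Mki67 holds 2 CHR and 3 CCAAT matches, Ect2 1 and 3, Prc1 1 and 1, and Racgap1 only 1 CCAAT match; the start not shown has no CHR and 1 CCAAT match for Prc1, and 1 and 2 for Ect2. In the 4 promoters shown no CHR match overlapped a CCAAT match. Of 40 mitosis genes with a promoter in the table, 16 (40.0%) held the CHR letters before a start and 30 (75%) the CCAAT letters, against 14.1% and 39.4% of the 14452 tested genes with a promoter. Among the mitosis genes called higher, 15 of 33 (45.5%) held the CHR letters and 23 (69.7%) the CCAAT letters, and of those not called 1 and 7 of 7. Of 31 replication genes, 4 (12.9%) held the CHR letters and 15 (48.4%) the CCAAT letters. A match describes the letters and is not a bound site.

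**Figure D5:**
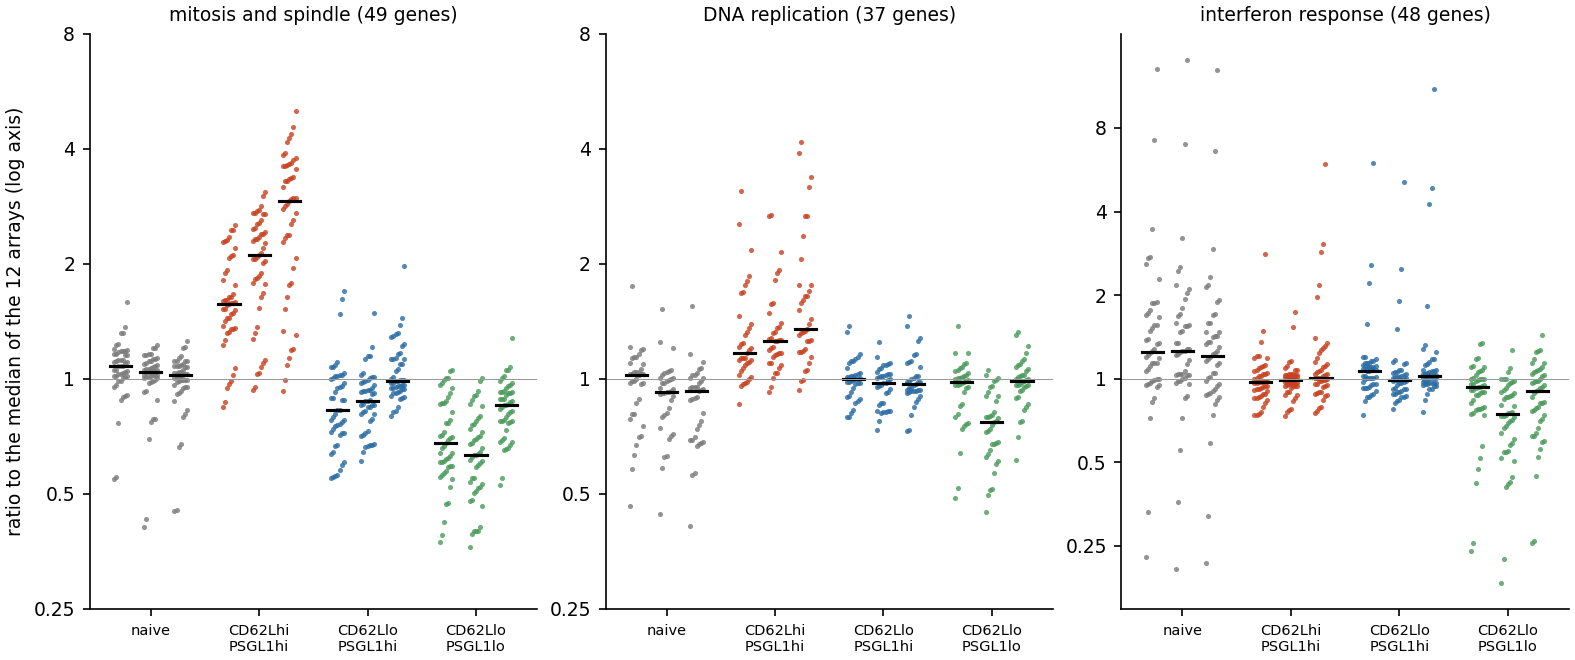
Ratio to the median of the 12 arrays (log axis) of every measured member of 3 lists on each array; black bars are medians over the members. Mitosis medians reach 1.57 to 2.92 in CD62Lhi PSGL1hi cells against 1.03 to 1.08 in naive cells, replication medians 1.17 to 1.35 against 0.925 to 1.02, and interferon medians 0.974 to 1.01 against 1.21 to 1.26.

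Of 48 interferon-induced genes 23 were lower, 4 higher and 21 not called, with a median of -0.38. Oas2 stood at 13, 14.1 and 13 in the naive arrays and 1.19, 0.970 and 1.97 in the CD62Lhi PSGL1hi arrays. Usp18, the protease that removes ISG15 and damps the interferon receptor, stood at 7.25, 7.0 and 6.61 in the naive arrays and 1.06, 0.938 and 2.18 in the CD62Lhi PSGL1hi arrays and fell by 2.43 ± 0.23. On both genes all naive arrays were above all CD62Lhi PSGL1hi arrays, of which replicate 3 was the highest. Ifit3 fell by 1.63 ± 0.16, Ifit1 by 1.43 ± 0.15 and Ifit2, which like them blocks the translation of viral RNA, by 1.24 ± 0.10 (adjusted p = 1.03e-07, limma). Irf7, the amplifier of type I interferon, fell by 0.89 ± 0.11. Other members were not called: Irf1, an interferon-induced transcription factor, differed by -0.05 ± 0.12, Psmb8 by -0.01 ± 0.13 and Rsad2 by -0.26 ± 0.11. Among the 4 higher members, Ifitm1 and Ifitm2 encode transmembrane proteins that block virus entry: Ifitm1 stood at 0.227, 0.206 and 0.216 in the naive arrays and 2.80, 1.74 and 5.96 in the CD62Lhi PSGL1hi arrays and rose by 3.83 ± 0.33, and Ifitm2 rose by 2.21 ± 0.33. Gbp3 (1.16 ± 0.18) and Oas1a (0.45 ± 0.12) were the other members that rose. The count of lower genes was 20 to 26 over the alternative settings.

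Promoters of Ifit1 and Ifit3, which fell, are printed as 2 of the interferon genes that hold the element by which this family is known, the interferon-stimulated response element (ISRE, searched as GAAANNGAAA on both strands), in capitals, again from 250 bases before the RefSeq start in GRCm38.p6.
Ifit1 (chr19:34640639-34640888, plus strand): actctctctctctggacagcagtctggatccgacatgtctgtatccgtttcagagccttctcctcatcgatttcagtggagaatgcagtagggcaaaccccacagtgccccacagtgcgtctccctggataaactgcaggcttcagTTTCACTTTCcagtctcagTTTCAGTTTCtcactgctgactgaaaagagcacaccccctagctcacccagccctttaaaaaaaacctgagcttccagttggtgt
Ifit3 (chr19:34583279-34583528, plus strand): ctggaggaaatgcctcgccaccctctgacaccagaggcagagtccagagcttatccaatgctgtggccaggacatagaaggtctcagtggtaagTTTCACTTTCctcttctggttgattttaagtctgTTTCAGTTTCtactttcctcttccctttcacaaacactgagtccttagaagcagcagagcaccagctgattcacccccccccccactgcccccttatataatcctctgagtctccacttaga
Each holds 2 matches, whereas neither start of Ifit2, which also fell, holds one. Of 35 interferon genes with a promoter 14 (40.0%) held the letters, against 3.1% of all 14452 genes, and the share was not highest among the lower ones: 4 of 15 (26.7%) lower, 7 of 16 (43.8%) not called and 3 of 4 (75%) higher members held them. Oas2 and Usp18 had no entry in the promoter table.

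Metabolic programmes changed little or in both directions. Of 49 genes of the respiratory chain 1, Cox6b1, was called, with a median of 0.02, and the call was lost when any naive array, among others, was left out. Of 25 glycolysis genes 6 were higher and 4 lower; Hif1a, the hypoxia regulator of glycolysis, rose by 1.30 ± 0.15 and Pdk1, which keeps pyruvate from the mitochondrion, fell by 1.35 ± 0.11. Averaging over all probe sets gave 10 higher glycolysis genes. Of 32 genes of cholesterol and fatty acid synthesis 10 were lower and 3 higher. The sterol genes Hmgcs1 (0.86 ± 0.18), Mvd (0.90 ± 0.15) and Sqle (0.63 ± 0.12) fell, and the fatty acid enzymes Elovl6 (0.96 ± 0.14) and Scd2 (0.72 ± 0.10) rose, though neither of the 2 other probe sets of Scd2 and 1 of 2 of Elovl6 passed. Higher genes of this list were 5 or 6 with other choices of probe set.

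Of 41 cytosolic ribosomal protein genes 10 were lower and none higher, with a median of -0.16. Rpl12 stood at 2.03, 1.92 and 1.77 in the naive arrays and 0.785, 0.885 and 0.770 in the CD62Lhi PSGL1hi arrays and fell by 1.23 ± 0.11. The falls of Rps9 (1.05 ± 0.12) and Rps10 (0.79 ± 0.13) rest on 1 probe set each, because none of their 2 and 5 other probe sets passed. Of 26 genes of the unfolded protein response 4 were higher and 1 lower (2 higher without the naive array of replicate 3), led by Atf6 (1.85 ± 0.10). Of 14 amino acid transporters 2 were higher and 3 lower. Of 16 genes of dissociation and heat stress 6 were higher and none lower, with Fos at 0.95 ± 0.16 and Hsp90aa1 at 0.83 ± 0.16. The count was 3 under quantile normalization. The median ratio of the 16 genes was 1.27, 0.982 and 1.04 on the CD62Lhi PSGL1hi arrays and 0.774 to 0.853 on the naive arrays. Replicate 1 was also the highest array of CD62Llo PSGL1hi (1.24) and CD62Llo PSGL1lo cells (1.25). The part of these stress genes in the other differences was not tested.

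Markers of cells outside the gate were read for the whole lists. Of 18 B cell markers 4 were higher and 1 lower (3 lower without the CD62Lhi PSGL1hi array of replicate 3), with a mean ratio of 0.952 to 1.13 on the CD62Lhi PSGL1hi arrays and 0.945 to 0.98 on the naive arrays. Ms4a1, encoding CD20, was at 1.45, 1.21 and 1.31 in the naive arrays and 1.39, 0.766 and 1.78 in the CD62Lhi PSGL1hi arrays and Cd79a at 1.05, 1.06 and 1.16 in the naive arrays and 0.856, 0.815 and 1.09 in the CD62Lhi PSGL1hi arrays; neither was called. H2-Eb1 (2.05 ± 0.24) and Cd74 (1.69 ± 0.21), of MHC class II presentation, rose, while H2-Aa (0.58 ± 0.24) and H2-Ab1 (0.06 ± 0.13) were not called. Of 10 plasma cell markers 6 were higher, with a mean ratio of 1.28 to 1.53 against 0.646 to 0.683. They were Prdm1 (3.15 ± 0.14) and Irf4, which effector T cells express too, and Jchain (3.13 ± 0.26), Sdc1 (1.47 ± 0.15, with 1 of its 3 other probe sets), Txndc5 (0.89 ± 0.14) and Mzb1 (0.82 ± 0.23). Xbp1 differed by 0.14 ± 0.11 and Tnfrsf17, the receptor BCMA of plasma cells, by 0.17 ± 0.14, both uncalled. The part of plasma cells in these rises was not tested.

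Myeloid and other markers gave the following. Cd68 rose by 3.71 ± 0.16 and Cybb, a subunit of the phagocyte oxidase, by 2.43 ± 0.26, whereas Csf1r (0.17 ± 0.25), Adgre1 (-0.07 ± 0.13) and C1qa (0.08 ± 0.18) were not called. Of 16 dendritic cell markers 4 were higher, led by Cd83 (3.32 ± 0.19), which activated T cells also carry, with a mean ratio of 0.932 to 1.09 against 0.909 to 0.957. Of 13 erythroid and platelet markers 1 was higher and 2 lower (mean ratio 0.992 to 1.15 against 1.29 to 1.33), of which Gata1 alone kept its call whichever array was left out; Gata1 fell by 1.80 ± 0.12 and Hba-a1 differed by -0.15 ± 0.11. None of 5 gamma-delta and innate-like T cell markers was called (0.966 to 1.07 against 1.07 to 1.14), but Trgv1, a gamma segment outside that list, stood at 0.768, 0.760 and 0.699 in the naive arrays and 1.43, 1.22 and 2.18 in the CD62Lhi PSGL1hi arrays and rose by 1.08 ± 0.20 (adjusted p = 0.000911, limma). Of 17 markers of stroma and endothelium 2 were higher and 1 lower (1.03 to 1.05 against 1.02 to 1.04); 1 was higher without the CD62Lhi PSGL1hi array of replicate 2 or 3 or the naive array of replicate 3, and 2 were lower without the naive array of replicate 1.

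Direct comparisons with the other CD44+ populations of the same age show where CD62Lhi PSGL1hi cells stood among antigen-experienced cells. Against CD62Llo PSGL1hi cells 383 of 18193 genes (2.11%) were called, 255 higher (1.4%) and 128 lower (0.704%). With the replicate number as a block, which pairs these arrays, 578 genes were called; 248 were called without the CD62Llo PSGL1hi array of replicate 2 (80 lower), and without that of replicate 1 there were 78 lower genes. Of the 49 mitosis genes 38 were higher and none lower, with a median of 1.25 beside 0.007 over all genes, and of the 37 replication genes 12 were higher. Mki67 was at 1.03, 1.03 and 1.38 in CD62Llo PSGL1hi cells, below every CD62Lhi PSGL1hi array, and differed by 1.41 ± 0.16 (adjusted p = 0.000122, limma). Ccnb2 differed by 2.04 ± 0.23, Cdc6 by 1.75 ± 0.17 and Sdc1, encoding syndecan-1, by 1.26 ± 0.15. No other list had more than 6 members higher here, and of the 14 NK and CD8 T cell markers Klrd1 (-1.64 ± 0.29) and Klrc1 (-2.06 ± 0.43) were lower.

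The largest single differences from CD62Llo PSGL1hi cells included higher values of Tubb2b, a neuronal beta-tubulin, with 3.00 ± 0.16, Cpm, a membrane carboxypeptidase, with 2.35 ± 0.12, Plxdc1, an endothelial plexin domain protein, with 2.29 ± 0.14, and Basp1 with 2.00 ± 0.20. Plxdc1 stood at 6.73, 6.85 and 5.15 in CD62Lhi PSGL1hi cells, 1.36, 1.32 and 1.14 in CD62Llo PSGL1hi cells, 0.603, 0.662 and 0.860 in CD62Llo PSGL1lo cells and 0.526, 0.528 and 0.510 in naive cells. The CD62Lhi PSGL1hi arrays were the highest of all 12, but the differences of Plxdc1 rest on 1 probe set. The only other one did not pass against naive, CD62Llo PSGL1hi (0.37) or CD62Llo PSGL1lo cells. On the lower side Cxcr6, a receptor of tissue-resident T cells, differed by -2.48 ± 0.25, the T cell receptor gamma segment Trgv1 by -2.31 ± 0.20 and Adam8 by -1.74 ± 0.15. The order of Cxcr6 was naive (0.102, 0.157 and 0.135), then CD62Lhi PSGL1hi (1.12, 0.695 and 0.904) and CD62Llo PSGL1lo (1.10, 0.629 and 1.25), which overlapped, then CD62Llo PSGL1hi (5.94, 3.6 and 5.64). Differences of Il4 (-1.19 ± 0.26) and Gpm6b (-1.77 ± 0.40) from CD62Llo PSGL1hi cells were called but lost without the CD62Llo PSGL1hi array of replicate 2, among other settings.

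Of the 32 naive and central memory genes 6 were higher and none lower than in CD62Llo PSGL1hi cells. Lef1 was at 0.646, 0.656 and 0.570 in CD62Llo PSGL1hi cells and differed by 0.81 ± 0.10 (adjusted p = 0.000391, limma). Txk differed by 1.23 ± 0.14 and Myb by 1.87 ± 0.14. Ccr7 (0.29 ± 0.19) and S1pr1 (0.46 ± 0.22) were not called; Ccr7 was called without the CD62Lhi PSGL1hi array of replicate 1. Klf2 (0.45 ± 0.15), Il7r (-0.46 ± 0.13) and Il21 (-0.74 ± 0.20) were not called, but were with the replicate block over all 12 arrays; Il7r was also called without the CD62Lhi PSGL1hi array of replicate 2, and Klf2 without the CD62Llo PSGL1lo array of replicate 2. Of the 28 Th1 and cytotoxic genes 1 was higher, Crtam (0.98 ± 0.17), and 5 lower, among them Ccl3 (-0.74 ± 0.14) and Il18rap (-0.99 ± 0.15). Tbx21 (-0.31 ± 0.14), Eomes (0.19 ± 0.15), Foxp3 (0.21 ± 0.17) and Il10 (0.02 ± 0.13) were not called.

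Against CD62Llo PSGL1lo cells 2687 of 18193 genes (14.8%) were called, 1471 higher (8.09%) and 1216 lower (6.68%). Selplg differed by 2.98 ± 0.12 (adjusted p = 7.96e-11, limma) from this population sorted for low PSGL1. Th1 and cytotoxic genes were higher in 20 of 28 cases and lower in 3, B cell help genes lower in 20 of 31 cases and higher in 1. Gzmk stood at 0.0710, 0.0813 and 0.0862 in CD62Llo PSGL1lo cells and differed by 4.67 ± 0.13, Gzmb by 5.31 ± 0.28, Ctla2a by 5.13 ± 0.20, St3gal6 by 4.96 ± 0.16 and Eomes by 4.62 ± 0.15. On the other side Ascl2 stood at 50.5, 29.4 and 37.0 against 0.926, 0.824 and 0.646 in CD62Lhi PSGL1hi cells, a difference of -5.59 ± 0.36. Sostdc1 differed by -5.17 ± 0.28, Stfa3, a stefin, by -4.95 ± 0.38, Fam71b by -4.80 ± 0.25 and Il4 by -4.53 ± 0.26. Bcl6 was at 4.30, 4.06 and 4.89 and differed by -2.27 ± 0.14, and Foxp3 by 3.95 ± 0.17. Of the 49 mitosis genes 43 were higher, with Mki67 at 2.15 ± 0.16, and of 48 interferon genes 17 were higher and 1 lower. Klf2 differed by 2.25 ± 0.15 and S1pr1 by 1.25 ± 0.22.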

How the data were processed

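Affymetrix whole-genome mouse arrays measured RNA of 4 sorted CD4 populations, 3 arrays each. Per the labels and the submitters' processing notes the authors obtained signals with MAS5; no source used here gives its version or scaling target. The deposited values are linear ratios, each probe set over its own median of 12 arrays (within 0.002 of 1 for 99.7% of 45101 probe sets), so depth, brightness and signal over background are unknown. The platform annotation gave 1 symbol to 34945 probe sets and several to 932; 9160 were unlisted and 64 were controls. Of several probe sets per gene (9010 of 18193 genes), one without cross-hybridisation suffix was kept, then one with a curated RefSeq target, then the lowest number.

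Ratios were taken to log2 with no pseudocount or filter (both planned for signals, but ratios give no brightness) and fitted with limma 3.58.1 (R 4.3.3, lmFit and eBayes without trend) on all 12 arrays; tests are two-sided. The median SE was 0.118, with 8 residual and 7.28 prior degrees of freedom; 3 arrays per group limit the precision. The fit was tested on simulated data. Deviations of same-numbered arrays correlated at 0.341, 0.288 and 0.447 with CD62Llo PSGL1hi and 0.27, 0.127 and 0.27 with CD62Llo PSGL1lo. Same-numbered arrays thus tended to deviate alike, a link read from the data and not from the labels. Whether they share a sort or a processing step was not tested, and the main fit does not use the link.

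The 38 lists and the members were chosen with earlier results of these data known. Of 1036 listed symbols 915 were measured. Named were fixed T cell genes, the 12 largest rises and falls (5 and 5 in direct comparisons) among called genes with no overlap between groups, and from each list the 4 members of smallest p; other list members are named to describe the list, after their values were seen. Titles, not descriptions, gave the groups: the description of CD62Llo PSGL1hi samples names another gate. Alternatives were quantile normalization, median centring, other choices of probe set, only the 6 arrays, robust eBayes, the replicate block and leaving out each array.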

Additional observations from a re-analysis of the deposited data

Results flagged for a closer look

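For Tubb2b and Cpm, which are among the largest differences between CD62Lhi PSGL1hi and CD62Llo PSGL1hi cells, the 2 populations differed from naive cells in opposite directions; the difference between them was tested by limma. Cdc20, Gstm1, Myb, Spc24, Tec and Zwilch also lay on opposite sides of naive cells and are not described further. Tubb2b stood at 3.15, 2.46 and 2.23 in CD62Lhi PSGL1hi cells, 0.785, 0.632 and 0.689 in naive cells, 0.333, 0.366 and 0.274 in CD62Llo PSGL1hi cells and 1.77, 1.22 and 1.54 in CD62Llo PSGL1lo cells. The direct difference was 3.00 ± 0.16 (adjusted p = 4.46e-08, limma). Cpm stood at 2.74, 3.41 and 3.68, 0.861, 0.891 and 1.04, 0.565, 0.696 and 0.657 and 1.04, 1.03 and 0.974 in the same order of populations. Its direct difference was 2.35 ± 0.12 (adjusted p = 4.46e-08, limma). Tubb2b and Cpm were picked among called genes whose CD62Lhi PSGL1hi and CD62Llo PSGL1hi arrays did not overlap. The call and the lack of overlap were thus set by the choice and are no separate support.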

How the results depend on the processing

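Over the alternative settings the number of genes called against naive cells was 2908 (quantile normalization) to 4535 (probe set of highest SD), and 2934 to 4177 when 1 array was left out. Of the settings tried for named genes against naive cells, 3602 values kept their side of the threshold, 53 lost the call and 23 gained one. Direction was compared only where a gene was called in the main fit or in the setting. There 1 value reversed: Tnfsf11, -0.055 under quantile normalization against 2.54. That setting by construction gives all arrays the same distribution of ratios. Against CD62Llo PSGL1hi cells the lower genes were 212 under quantile normalization; with the replicate block over all 12 arrays 578 genes were called, 236 of them lower, and with the block within the 9 arrays of CD44+ cells, a setting added after seeing the data, 585, 250 of them lower. Leaving out 1 array gave 248 to 463 genes, 168 to 297 higher and 78 to 166 lower; without the CD62Llo PSGL1hi array of replicate 2 there were 248 (168 higher, 80 lower), and without that of replicate 1, 78 lower. Same-numbered CD62Lhi PSGL1hi and naive arrays deviated alike little or not at all (correlations of deviations 0.078, -0.07 and 0.117). With the replicate block 4313 genes were called against naive cells and 3157 against CD62Llo PSGL1lo cells, where Fas, Il7r and Csf1r gained a call. The causes were not tested. Deposited ratios leave signal over background unknown, so genes near background cannot be told from others.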
